A study of Mus musculus with 16 samples.

Results

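The genes described here encode the machinery that brings secretory proteins into the endoplasmic reticulum (ER) and attaches and first trims their N-linked glycans. They were fixed as 38 genes by name, of 18193 genes that the platform annotation names on these arrays, and all 38 were matched. Each gene is given by the probe set, among those annotated to it alone, with the highest mean over the 16 arrays of the series. The arrays of nontransgenic B cells (5) carried RNA of spleen B cells selected on B220 from C57BL/6 mice, those of Eμ-xbp-1s B cells (5) carried RNA of the same selection from transgenic mice, and those of Eμ-xbp-1s MM (6) carried RNA of the myeloma tumors that the transgenic mice develop. The B cells came from mice of 20 weeks of age, and no age is given for the MM samples. The transgene carries the mouse cDNA of the spliced form of XBP-1 under an immunoglobulin VH promoter and Eμ enhancer, which are active through B cell development and in some T cells, followed by an eGFP reading frame. The control mice are littermates without it. Transgenic progeny of independent founder lines were used in the study, and which line gave which sample is not stated. B cells were enriched with magnetic microbeads, while no sort is named for the tumors, and whether each MM sample came from a mouse of its own is not stated. For the comparison of the B cells the study counts 5 mice in each group. The p-values speak of the spread between arrays, part of which may be technical, and in MM the arrays may not be separate mice.

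A secretory protein is recognised as its signal peptide leaves the ribosome by the signal recognition particle (SRP), which docks on the SRP receptor in the ER membrane. The chain then passes through the Sec61 channel, helped by the TRAP and TRAM proteins, and signal peptidase cuts the signal peptide off. The oligosaccharyltransferase moves a sugar tree, preassembled on the lipid dolichol, to asparagines of the chain, and glucosidases trim it for folding. Plasma cells, which secrete antibody, need much of this machinery, and XBP-1s is known as a transcription factor that raises many of its genes during plasma cell differentiation and under ER stress. Plasma cells are the cell type that is malignant in MM.

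The intensities are on a linear scale, computed by the authors in dChip. Those under 50 were set to 50, and a probe set entered a comparison when over 20% of its arrays exceeded 100. All 38 genes passed this filter in every comparison. The groups were compared on the log2 scale with limma over all probe sets kept, and a change was called at a Benjamini-Hochberg adjusted p under 0.01. An intensity of a probe set says nothing of its level against another gene's, so that levels are compared only between arrays.

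None of the 38 genes was called in any comparison. Between Eμ-xbp-1s and nontransgenic B cells, 0 were called higher and 0 lower, where 2.75% of the 20596 probe sets tested were called higher and 0.481% lower. Between MM and Eμ-xbp-1s B cells the counts were again 0 and 0, against 1.28% higher and 1.91% lower of 22194, and between Eμ-xbp-1s MM and nontransgenic B cells 0 and 0, against 3.95% higher and 5.65% lower of 21894. At an unadjusted p under 0.05, limma gave 8 genes higher (Srp14, Sec61a1, Sec61b, Spcs2, Spcs3, Stt3a, Mogs and Prkcsh) and 0 lower between the B cell groups (10.6% and 9.47% of all probe sets), 0 higher and 1 lower (Stt3a) in MM against the transgenic B cells (11.4% and 15.2%), and 4 higher (Sec61b, Ssr3, Spcs1 and Dpagt1) and 1 lower (Dpm2) in MM against nontransgenic B cells (15.1% and 20.2%). The largest log2 differences of a member in these comparisons were 0.51 (Srprb), -0.60 (Krtcap2) and -0.78 (Stt3b). The 95% interval of the difference lay within a 2-fold change in either direction for 36 of 38 genes between the B cell groups and for 30 of 38 in each comparison of MM.

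**Figure D1:**
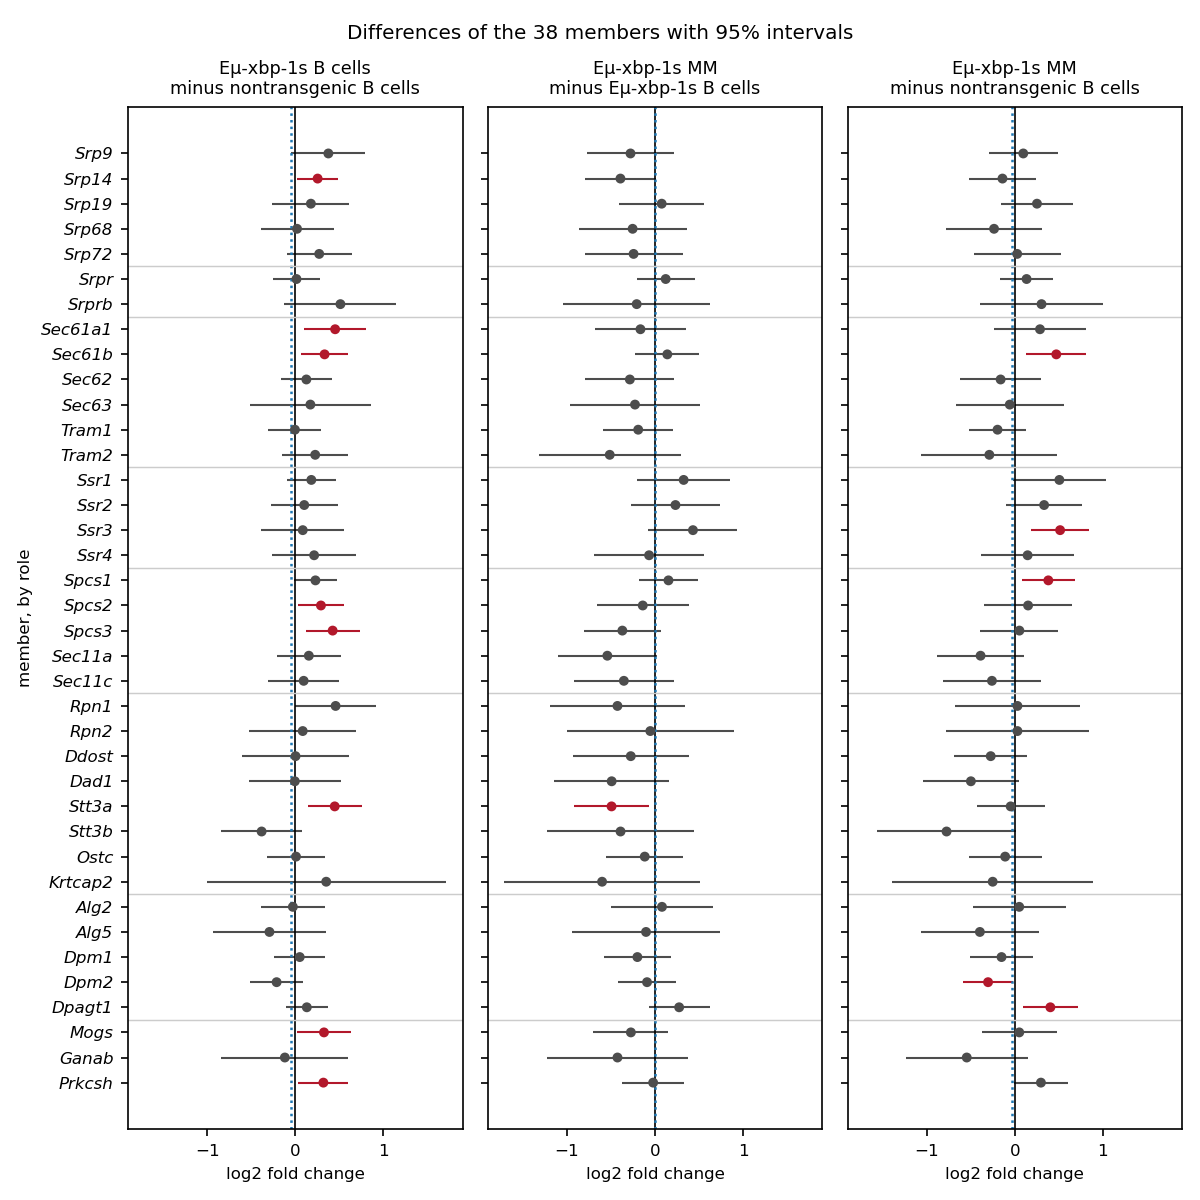
Log2 fold change (x axis) of each of the 38 genes (y axis, by role from SRP to glucose trimming) in the 3 comparisons, as points with the 95% interval of the limma fit as lines. Red marks an unadjusted p under 0.05, the dotted blue line the median over all probe sets tested, and 31 of 38 points lie above 0 in the left panel, 9 in the middle and 20 in the right panel.

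The lean of the genes was upward in Eμ-xbp-1s B cells, where their median log2 fold change was 0.16 beside -0.05 over all probe sets, and 31 of 38 lay above 0 beside 42.8% of all probe sets. It was downward in MM against Eμ-xbp-1s B cells, with a median of -0.20 beside 0.00 and 9 of 38 above 0 beside 50% of all probe sets. Against nontransgenic B cells the MM median was 0.03 beside -0.03, with 20 of 38 above 0 beside 47.2%. These medians carry no test, and the comparisons share arrays, so that these directions are not independent of each other.

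The spread between arrays set the precision of these comparisons and grew from group to group. The coefficient of variation had a median over the 38 genes of 13.3% in nontransgenic B cells, 21.9% in Eμ-xbp-1s B cells and 28.6% in MM. The highest array was more than 2-fold above the lowest for 2 genes in nontransgenic B cells, for 14 in Eμ-xbp-1s B cells and for 22 in MM. In MM, replicate 6 gave the lowest value of the group for 20 genes and replicate 5 for 12, and replicate 3 gave the highest for 20. MM replicates 5 and 6 were below every nontransgenic array for 21 genes each, while MM replicate 3 was above every nontransgenic array for 24. Among the Eμ-xbp-1s B cells, replicate 1 was above every nontransgenic array for 32 genes and replicate 3 for 17, with 13 below. None of these counts was taken over all probe sets, so that they do not set the 38 genes apart. Over all probe sets kept, the SD of log2 differences between 2 arrays also grew, reaching 0.49 in nontransgenic B cells, 0.81 in Eμ-xbp-1s B cells and 1.05 in MM.

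**Figure D2:**
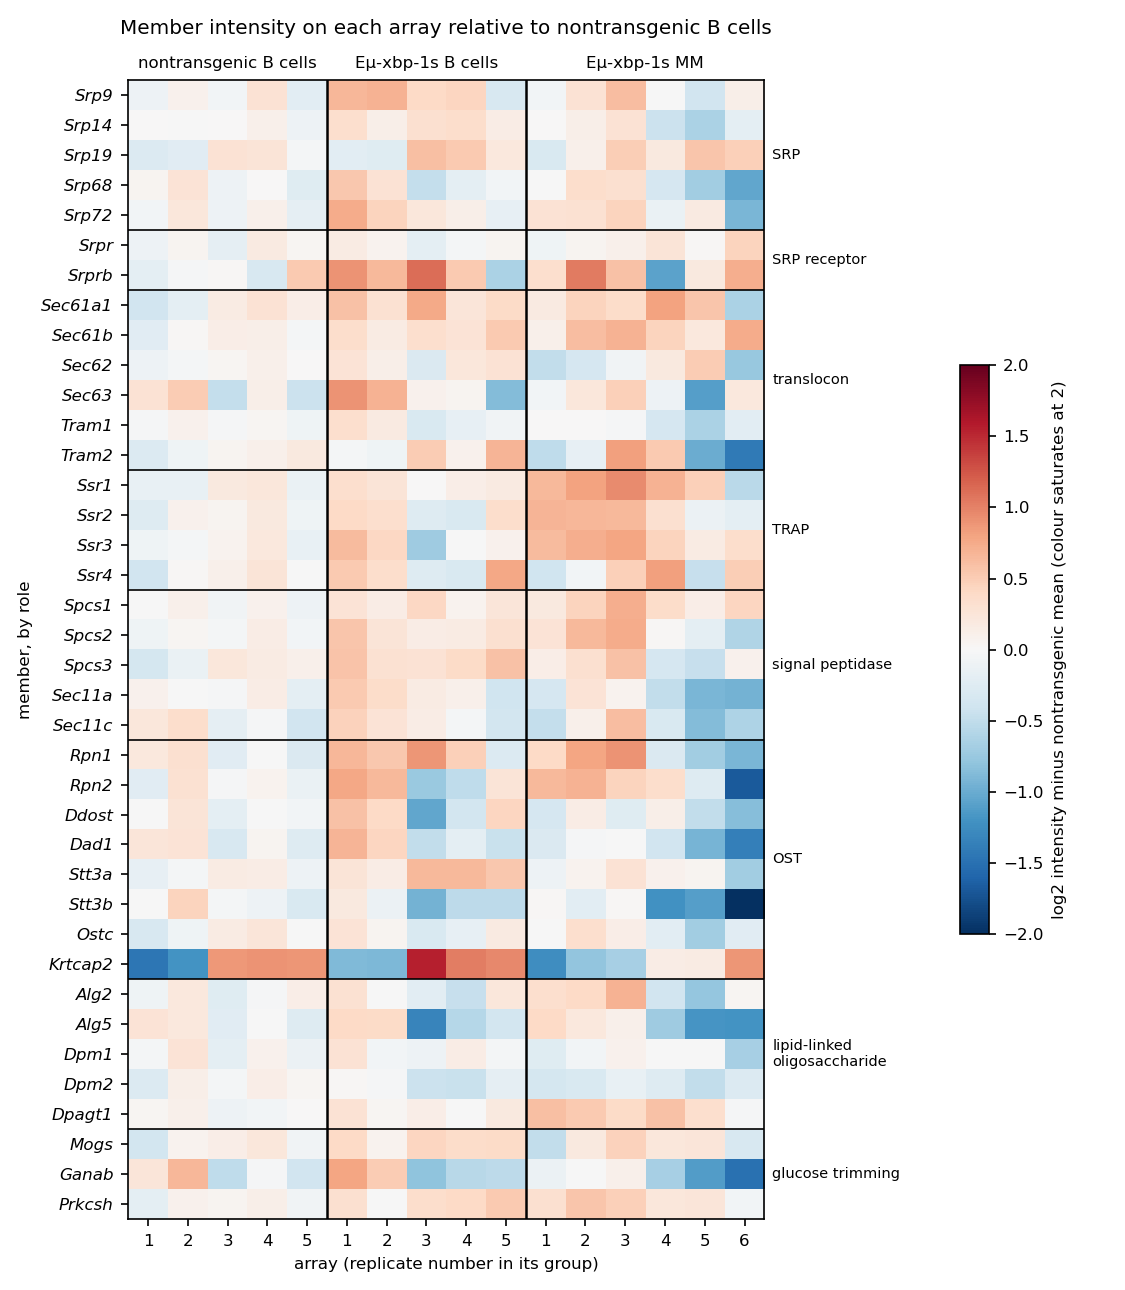
Log2 intensity of each of the 38 genes (rows, by role) on each of the 16 arrays (columns, by replicate number in each group) minus the mean of the 5 nontransgenic arrays, as colour from -2 (blue) to 2 (red). Eμ-xbp-1s B cell replicate 1 stands above every nontransgenic array for 32 genes, MM replicates 5 and 6 stand below every one for 21 each, and Krtcap2 is split within each group. These counts were not taken over all probe sets.

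Several other measures also differed between arrays and groups, not always on the arrays named above. The 3' over 5' intensity of the Gapdh control, a sign of RNA integrity, was 0.87 to 0.93 on the nontransgenic arrays, 2.41 and 1.97 on Eμ-xbp-1s B cell replicates 3 and 4 and 0.92 to 1.06 on the other Eμ-xbp-1s B cell arrays, and it was 1.28, 1.5 and 1.39 on MM replicates 4, 5 and 6 against 0.93 to 1.03 on MM replicates 1 to 3. The BioB spike control read 707 on MM replicate 6 and 232 to 433 on the other MM arrays. It read 1203 on Eμ-xbp-1s B cell replicate 3, 298 to 431 on the others of that group and 268 to 454 on the nontransgenic arrays. The part of these controls in the values of the genes was not tested. The arrays also fell into 2 sets that cross the groups: 4.44% of 21863 probe sets (281 lower and 689 higher in the first set) separated replicates 1 and 2 of both B cell groups and MM replicates 1 to 3 from the other 9 arrays with no overlap, among them Krtcap2 and Alg5 of the 38 genes. The labels name no batch, the sets were seen in the data, and no other split of the arrays was counted. The SD of log2 differences between 2 arrays was 0.26 to 0.28 within and 0.41 to 0.49 between sets in nontransgenic B cells. These ranges overlapped in Eμ-xbp-1s B cells (0.21 to 0.62 and 0.60 to 0.81) and in MM (0.36 to 0.98 and 0.90 to 1.05). Fold changes that differ between the sets are given within the first and then the second set. Over the 8 mature B cell markers measured, the summed intensity was 32058 to 35538 in nontransgenic B cells, 13065 to 27387 in Eμ-xbp-1s B cells and 645 to 13870 in MM, and 0 of the 8 were called lower in Eμ-xbp-1s B cells but all 8 were lower at an unadjusted p under 0.05 in limma. All 9 T cell markers rose in Eμ-xbp-1s B cells, from sums of 745 to 883 to sums of 5702 to 7148, and 6 of 8 tested neutrophil markers rose, with sums of 711 to 1503 in nontransgenic and 9765 to 30946 in Eμ-xbp-1s B cells (the mean log2 intensity of these markers was 11.06 in replicate 5 and 8.75 to 9.27 on the other arrays of the group). In MM the neutrophil sum was 1096 at its lowest, 1963 in the median and 70852 at its highest, with MM replicates 4 and 5 high (mean log2 intensity 12.70 and 11.97, against 6.47 to 7.39 on the other MM arrays). The same MM arrays were high in erythroid markers (9.99 and 10.79, against 5.65 to 5.79), as was Eμ-xbp-1s B cell replicate 3 (8.73, against 6.58 to 7.61 on the others of its group). Of the NK cell markers 6 of 7 rose in Eμ-xbp-1s B cells, with sums of 1215 to 1602 in nontransgenic and 4618 to 6519 in Eμ-xbp-1s B cells, and of the macrophage markers 3 of 8 rose, with sums of 2679.7 to 3934 and 6855 to 11132. Markers of stroma and bone summed to 5364 to 12325 in MM and to no more than 546 in either B cell group, with 6 of 8 called higher in MM against the transgenic B cells. The part of these cell types in the values below was not tested, and in mixed samples fewer cells of a type and less RNA per cell cannot be told apart.

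The labels were checked against markers. Sdc1, the plasma cell surface marker CD138, ran from 110.3 to 264 in MM and from 141 to 246 in nontransgenic B cells, and Tnfrsf17, the plasma cell receptor BCMA, from 32.1 to 92.9 in MM, below 100 on all 6 arrays. The 12 plasma cell markers summed to 12883 to 14648 in nontransgenic B cells, 11483 to 16517 in the transgenic ones and 4502 to 18021 in MM, and no marker of any list was at 0. Jchain, Mzb1 and Xbp1, with means of 5544, 2596 and 2453 over the 16 arrays, weigh most in these sums. Of the 11 plasma cell markers tested in MM against nontransgenic B cells, 0 were called higher and 1 lower, beside 3.95% and 5.65% of all probe sets. Their mean log2 intensity was 7.29 and 8.13 on MM replicates 5 and 6, against 8.59 to 9.07 on the other MM arrays. The brightest probe set of Xbp1 ran from 1802 to 2452 in nontransgenic B cells, between 2040.2 and 3108 in the transgenic B cells and between 1477 and 4979 in MM. The gene was not called in any comparison by any of its 4 probe sets, and no source used here says whether they read the transgene.

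**Figure D3:**
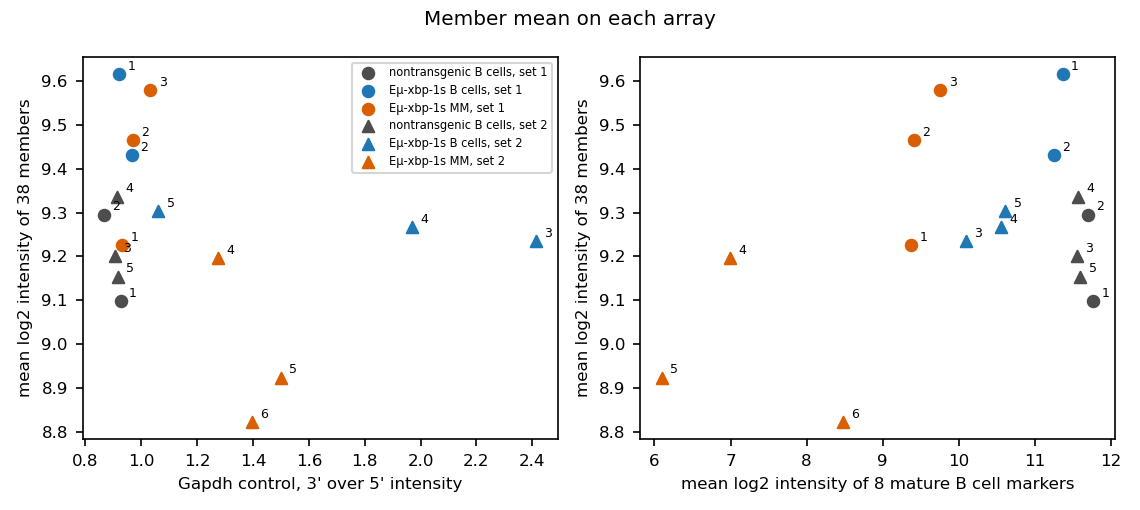
Mean log2 intensity of the 38 genes on each array (y axis) against the 3' over 5' intensity of the Gapdh control (left) and the mean log2 intensity of 8 mature B cell markers (right), with circles for the first set of 7 arrays, triangles for the other 9 and replicate numbers beside the points. MM replicates 5 and 6 have the lowest member means, 8.92 and 8.82, and Eμ-xbp-1s B cell replicate 1 and MM replicate 3 the highest, 9.62 and 9.58.

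The promoters of the 4 genes with the highest log2 fold change in MM against nontransgenic B cells, of those with a promoter sequence, are shown because the letters that XBP-1 is known to bind can be looked for in them. The sequences are the 250 bases before the start of the gene in RefSeq (mouse build GRCm38.p6), whose table of windows, from 250 bases before to 50 after the start, holds 28 of the 38 genes. The stretch of Ssr3 lies at chr3:65392554-65392803 (minus strand), Ssr1 at chr13:37994209-37994458 (minus strand), Spcs1 at chr14:31001667-31001916 (minus strand) and Sec61b at chr4:47474411-47474660 (plus strand). Each is printed 5′ to 3′ on the strand of its gene, with matches to CCACG or ACGTG on either strand in capitals.
Ssr3 promoter: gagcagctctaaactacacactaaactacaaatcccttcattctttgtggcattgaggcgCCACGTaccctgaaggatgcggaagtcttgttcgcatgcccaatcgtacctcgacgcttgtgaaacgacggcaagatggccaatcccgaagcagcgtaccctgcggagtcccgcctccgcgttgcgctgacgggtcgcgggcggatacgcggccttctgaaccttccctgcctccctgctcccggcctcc
Ssr1 promoter: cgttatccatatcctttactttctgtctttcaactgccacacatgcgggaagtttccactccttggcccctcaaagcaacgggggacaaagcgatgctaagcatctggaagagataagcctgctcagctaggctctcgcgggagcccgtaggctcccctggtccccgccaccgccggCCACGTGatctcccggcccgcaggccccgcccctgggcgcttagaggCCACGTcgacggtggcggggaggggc
Spcs1 promoter: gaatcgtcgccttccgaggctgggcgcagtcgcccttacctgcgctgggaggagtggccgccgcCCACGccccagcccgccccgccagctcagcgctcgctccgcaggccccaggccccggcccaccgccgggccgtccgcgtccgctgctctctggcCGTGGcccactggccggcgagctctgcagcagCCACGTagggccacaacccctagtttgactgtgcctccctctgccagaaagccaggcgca
Sec61b promoter: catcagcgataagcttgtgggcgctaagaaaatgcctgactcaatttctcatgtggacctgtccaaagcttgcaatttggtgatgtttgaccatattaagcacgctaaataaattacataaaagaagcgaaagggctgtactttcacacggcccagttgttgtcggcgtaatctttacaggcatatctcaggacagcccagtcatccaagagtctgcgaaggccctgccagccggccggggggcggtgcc
The pentamers CCACG, which ends the ER stress response element, and ACGTG, the core of the unfolded protein response element, overlap in runs such as CCACGT, where a single stretch counts for both. Within these 250 bases Ssr1 held 2 matches to CCACG and 3 to ACGTG (its CACGTG counts on each strand), Ssr3 1 and 1, Spcs1 3 and 1, and Sec61b 0 of either. Over the whole windows, CCACG was found for 19 of the 28 genes (67.9%) and for 35.5% of the 27025 genes in the table, and ACGTG for 14 of 28 (50%) and for 21.8%. The full elements, TGACGTGG for the latter and CCAAT and CCACG with 9 bases of any kind between them for the former, were each found for 0 of the 28 genes, and for 0.714% and 0.137% of the genes in the table. The shares were not compared with those of promoters of like base composition. A match describes the letters only, and no binding was measured.

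The SRP and its receptor, which target nascent chains to the membrane, leaned upward in Eμ-xbp-1s B cells. All 5 SRP genes (median log2 fold change 0.25) and both receptor genes (0.51 and 0.01) lay above 0 against nontransgenic B cells. Srp9, an SRP protein of the Alu domain, stood at 393, 447, 406, 514 and 366 on the nontransgenic arrays (replicates 1 to 5) and at 669, 685, 557, 569 and 338 on the Eμ-xbp-1s B cell arrays. In MM it ran from 323 to 645 with a median of 439. Eμ-xbp-1s replicates 1 to 4 were above every nontransgenic array, replicate 5 was below all of them, and the MM arrays overlapped both groups. Between the B cell groups its log2 fold change was 0.38 (standard error 0.19, limma adjusted p = 0.308), 0.69 within the first array set, where it was called (limma adjusted p = 0.0068, 2 arrays against 2), and 0.16 within the second. Srp14, the partner of SRP9, did not overlap between the B cell groups, with 1233 ± 92.3 in the transgenic and 1033 ± 52.1 in the nontransgenic ones (SD, n = 5 each), and its log2 fold change of 0.25 (standard error 0.11, limma adjusted p = 0.216) did not pass. The probe set of Srp14, like those of Rpn1 and Stt3a, is of a type that may also read other transcripts. In MM the SRP genes had a median log2 fold change of -0.26 against Eμ-xbp-1s B cells and of 0.03 against nontransgenic B cells, and none of Srp19, Srp68 and Srp72 differed by more than 0.28 in any comparison.

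Srprb, the membrane-anchored subunit of the SRP receptor, stood at 91.1, 103, 106, 84.3 and 149.9 on the nontransgenic arrays (replicates 1 to 5) and at 195, 164, 227, 151 and 67.8 on the Eμ-xbp-1s B cell arrays. It ran from 44.2 to 215 with a median of 145 in MM. The highest nontransgenic array was exceeded by Eμ-xbp-1s replicates 1 to 4, while replicate 5 was the lowest of the 10 B cell arrays, and MM held values below and above all nontransgenic arrays. Its log2 fold change was 0.51 (standard error 0.29, limma adjusted p = 0.366) between the B cell groups, 0.89 (limma adjusted p = 0.00154) within the first array set and 0.26 within the second. Its other tested probe sets were dimmer, at group means of 71.4 to 120.5, and had log2 fold changes of 0.18 and -0.49. Srpr, the subunit that meets the SRP, was 757 ± 73.6 in nontransgenic B cells, 764 ± 68.7 in transgenic B cells (SD, n = 5 each) and 834 ± 112 in MM (SD, n = 6).

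At the channel itself, 5 of 6 genes lay above 0 between the B cell groups (median log2 fold change 0.20), 1 of 6 between MM and the transgenic B cells (-0.21) and 2 of 6 between MM and nontransgenic B cells (-0.11). Sec61a1, the pore-forming subunit, stood at 666, 756, 971, 1067 and 949 on the nontransgenic arrays (replicates 1 to 5) and at 1303, 1068, 1472, 1028 and 1127 on the Eμ-xbp-1s B cell arrays. In MM the gene ran from 561 to 1518 with a median of 1151. Only Eμ-xbp-1s replicate 4 lay below the highest nontransgenic array, and MM replicate 6, at 561, was the lowest of all 16 arrays. Sec61a1 had a log2 fold change of 0.45 (95% interval 0.10 to 0.81, limma adjusted p = 0.136) between the B cell groups, 0.73 (limma adjusted p = 0.00659) within the first array set and 0.26 within the second. Probe sets of the gene disagreed: the 2 next brightest gave 0.56 and 0.59 (limma adjusted p = 0.0313 and 0.0198) with no overlap of the groups, and the 3 dimmer ones gave -0.59, -0.97 and -0.42, so that the mean of its probe sets was -0.06.

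Sec61b, the small β subunit of the channel, stood at 1459.8, 1744, 1877, 1852 and 1671 on the nontransgenic arrays (replicates 1 to 5) and at 2192, 1929, 2159.7, 2068 and 2476 on the Eμ-xbp-1s B cell arrays. Its MM values ran from 1845 to 2881 with a median of 2480.2. The B cell groups did not overlap, and in MM only replicate 1, at 1845, fell within the nontransgenic range. Sec61b had log2 fold changes of 0.33 (standard error 0.12, limma adjusted p = 0.141) between the B cell groups and of 0.47 (95% interval 0.13 to 0.81, limma adjusted p = 0.0497) between MM and nontransgenic B cells. The latter was 0.58 and 0.40 within the 2 array sets. In all, 4 members did not overlap between the B cell groups, each higher in Eμ-xbp-1s B cells, namely Srp14, Sec61b, Spcs2 and Spcs3, beside 5.6% of all probe sets higher and 3.37% lower. Between MM and the transgenic B cells 0 members did not overlap, beside 4.04% higher and 4.15% lower.

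Neither gene of the TRAM proteins passed the threshold. Tram1, which contacts the chain as it enters the membrane, stood at 1873, 2002, 1873, 1953 and 1785 on the nontransgenic arrays (replicates 1 to 5) and at 2403, 2142, 1542, 1684 and 1803 on the Eμ-xbp-1s B cell arrays. It ran from 1227 to 1915 with a median of 1751 in MM, and MM replicates 4, 5 and 6 were below every nontransgenic array. Its log2 fold change was -0.20 (standard error 0.15, limma adjusted p = 0.371) between MM and nontransgenic B cells, -0.03 and -0.37 within the array sets. Tram2, its homolog, stood at 184, 209.7, 229.9, 238 and 255 on the nontransgenic arrays (replicates 1 to 5) and at 216, 209, 314, 235 and 355 on the Eμ-xbp-1s B cell arrays. Tram2 ran from 83.2 to 394 with a median of 176 in MM, a range of 2.24 on the log2 scale that put replicates 1, 5 and 6 below and replicates 3 and 4 above all nontransgenic arrays. For Tram2 the log2 fold change between MM and Eμ-xbp-1s B cells was -0.51 (standard error 0.37, limma adjusted p = 0.405), and it turned from 0.11 within the first array set to -1.05 within the second. Sec62 and Sec63, which serve the channel in posttranslational import, had log2 fold changes between -0.29 and 0.17 in the 3 comparisons.

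The TRAP complex, which sits at the channel and aids the entry of some signal peptides, had the highest median of the 8 groups of genes in MM against either B cell group. All 4 of its genes were above 0 against nontransgenic B cells, with a median log2 fold change of 0.42, and 3 of 4 were above 0 against the transgenic B cells, with a median of 0.28. Ssr3, the γ subunit, stood at 716, 741, 800.4, 887 and 687 on the nontransgenic arrays (replicates 1 to 5) and at 1177, 1013, 469, 763 and 814 on the Eμ-xbp-1s B cell arrays. In MM Ssr3 ran from 852 to 1319 with a median of 1109. Of the 6 MM arrays, 5 were above every nontransgenic array and replicate 5, at 852, was within their range. The log2 fold change of Ssr3 against nontransgenic B cells was 0.52 (95% interval 0.19 to 0.84, limma adjusted p = 0.0297), the lowest adjusted p among the 38 genes in the 3 comparisons. It was 0.78 (limma adjusted p = 0.00731) within the first array set and 0.27 within the second, and it passed the threshold after quantile normalization (limma adjusted p = 0.00685) and with array weights (0.000777). Between MM and the transgenic B cells Ssr3 had the highest log2 fold change of the 38 genes, 0.43 (standard error 0.23, limma adjusted p = 0.262), with 0.20 and 0.52 within the array sets.

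Ssr1, the α subunit, stood at 539, 539, 680.0, 695 and 545 on the nontransgenic arrays (replicates 1 to 5) and at 749, 714, 600.5, 653 and 671 on the Eμ-xbp-1s B cell arrays. The MM values of Ssr1 ran from 411 to 1149 with a median of 948. Of these arrays, 5 were above every nontransgenic array and replicate 6, at 411, was below all of them. Its log2 fold change against nontransgenic B cells was 0.51 (95% interval -0.02 to 1.03, limma adjusted p = 0.155). Without MM replicate 6 it was 0.71 and was called (limma adjusted p = 0.00402), and it was 0.94 (limma adjusted p = 0.00482) within the first array set and 0.12 within the second. The second and the third tested probe sets of Ssr1 gave 0.63 and 0.46 (limma adjusted p = 0.0324 and 0.0345), and the second of Ssr3 gave 0.63 (0.0583). Ssr2 and Ssr4, the β and δ subunits, had log2 fold changes of 0.33 and 0.15 in the same comparison, with MM replicates 1 to 4 of Ssr2 above every nontransgenic array and 0.75 and -0.06 for Ssr2 within the array sets.

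**Figure D4:**
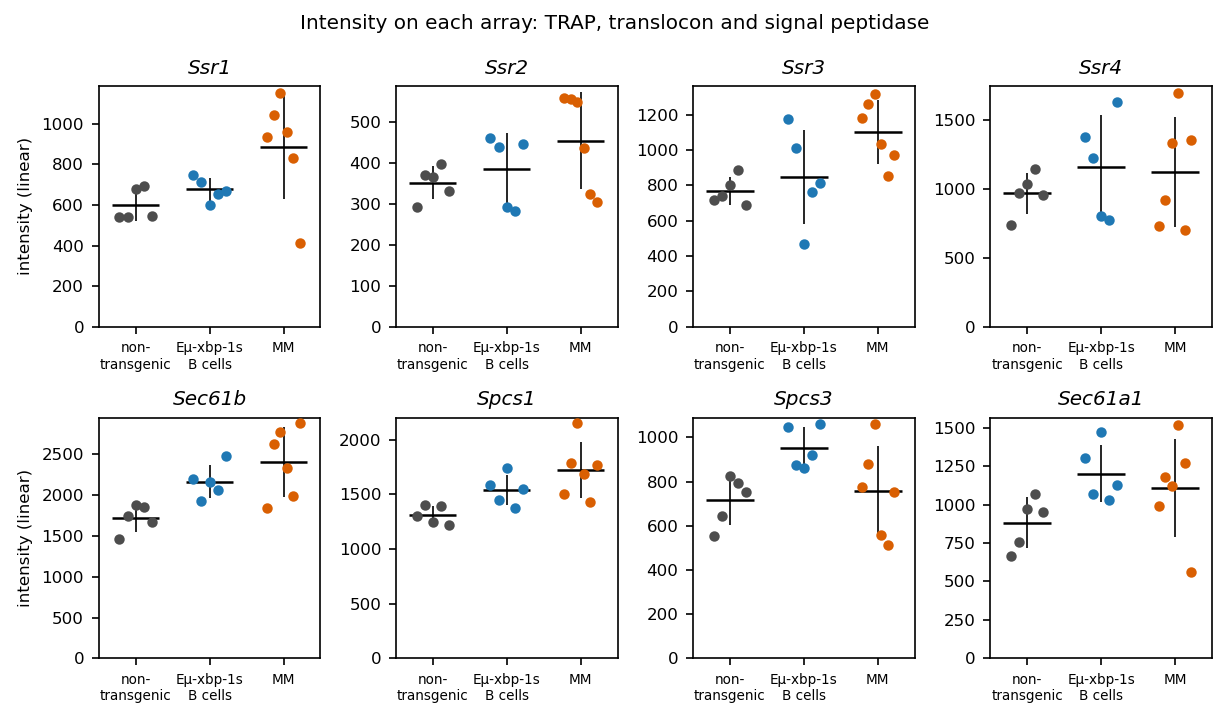
Linear intensity (y axis, from 0) of the 4 TRAP genes Ssr1 to Ssr4 and of Sec61b, Spcs1, Spcs3 and Sec61a1 on each array of nontransgenic B cells, Eμ-xbp-1s B cells and MM, as points with the mean (horizontal line) and SD (vertical line). For Ssr1, 5 MM arrays lie above every nontransgenic array and replicate 6, at 411, lies below them, while Spcs1 in MM and Sec61b and Spcs3 in Eμ-xbp-1s B cells do not overlap with nontransgenic B cells.

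Signal peptidase leaned upward in Eμ-xbp-1s B cells, with all 5 genes above 0 and a median log2 fold change of 0.23. Spcs3, an accessory subunit needed for cleavage, stood at 553, 645, 827, 794 and 755 on the nontransgenic arrays (replicates 1 to 5) and at 1045, 876, 859.6, 919 and 1062 on the Eμ-xbp-1s B cell arrays. In MM the values ran from 511 to 1062 with a median of 763. No Eμ-xbp-1s B cell array overlapped with the nontransgenic ones, while the MM arrays covered both groups. Spcs3 had log2 fold changes of 0.42 (95% interval 0.12 to 0.73, limma adjusted p = 0.106) between the B cell groups and of -0.37 (standard error 0.20, limma adjusted p = 0.265) between MM and Eμ-xbp-1s B cells. Within the array sets the former was 0.68 and 0.25 and the latter -0.09 and -0.66. Spcs2, another accessory subunit, was 1114 ± 133 against 907 ± 60.1 (SD, n = 5 each), a log2 fold change of 0.29 (standard error 0.12, limma adjusted p = 0.196) between the B cell groups and of 0.43 and 0.20 within the array sets. Spcs1, the third, was the 1 gene of the 38 whose MM arrays did not overlap with the nontransgenic ones, beside 6.59% of all probe sets higher and 9.55% lower, with 1722 ± 256 (SD, n = 6) against 1312 ± 82.5 (SD, n = 5) and a log2 fold change of 0.38 (95% interval 0.08 to 0.68, limma adjusted p = 0.0682). Within the 2 array sets this was 0.41 and 0.34.

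Of the catalytic subunits of signal peptidase, neither passed. Sec11a stood at 1009, 948, 944, 1058 and 831 on the nontransgenic arrays (replicates 1 to 5) and at 1379, 1229.6, 1074, 1023 and 726 on the Eμ-xbp-1s B cell arrays. It ran from 494 to 1153 with a median of 721 in MM. MM replicates 1, 4, 5 and 6 were below every nontransgenic array, and the log2 fold change against Eμ-xbp-1s B cells was -0.54 (standard error 0.26, limma adjusted p = 0.202), -0.44 and -0.74 within the array sets. Sec11c, the alternative catalytic subunit, stood at 1358, 1496, 1028, 1153 and 898 on the nontransgenic arrays (replicates 1 to 5) and at 1601, 1407, 1297, 1133 and 908 on the Eμ-xbp-1s B cell arrays. Sec11c ran from 639.8 to 1789.9 with a median of 892 in MM, with replicates 1, 5 and 6 below and replicate 3 above every nontransgenic array, and its log2 fold change was -0.26 (standard error 0.26, limma adjusted p = 0.502) against nontransgenic B cells, -0.21 and -0.41 within the array sets. A second, dimmer probe set of Sec11c was called lower in that comparison, from 312 to 183, with a log2 fold change of -0.78 (limma adjusted p = 0.00362). It was the only call among 35 other tested probe sets of the 38 genes in this comparison, and there was none among 35 between the B cell groups and 36 between MM and Eμ-xbp-1s B cells.

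The oligosaccharyltransferase, which transfers the glycan, held 3 of the 5 genes with the widest range over the MM arrays, Rpn2, Stt3b and Krtcap2. None of its 8 genes was above 0 in MM against the transgenic B cells (median log2 fold change -0.41), 2 were above 0 against nontransgenic B cells, and 6 were above 0 between the B cell groups. Stt3a, the catalytic subunit that works at the channel, stood at 739, 808, 931, 924 and 773 on the nontransgenic arrays (replicates 1 to 5) and at 993, 920.2, 1307, 1296 and 1210.4 on the Eμ-xbp-1s B cell arrays. It ran from 514 to 1017 with a median of 869.7 in MM. Eμ-xbp-1s replicates 1, 3, 4 and 5 exceeded every nontransgenic array and replicate 2 did not. In MM, 4 arrays were within the nontransgenic range, replicate 3 was above it and replicate 6 below. For Stt3a the log2 fold change was 0.45 (95% interval 0.14 to 0.75, limma adjusted p = 0.0856) between the B cell groups, the lowest adjusted p of a member there, with 0.31 and 0.54 within the array sets, and -0.49 (standard error 0.20, limma adjusted p = 0.131) between MM and Eμ-xbp-1s B cells, where it was -0.11 and -0.79 within them.

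Stt3b, the other catalytic subunit, which can act after translation, stood at 2532, 3436, 2464, 2369 and 2060.1 on the nontransgenic arrays (replicates 1 to 5) and at 2916, 2334, 1316, 1765 and 1754 on the Eμ-xbp-1s B cell arrays. In MM Stt3b ran from 567 to 2577 with a median of 1677. Eμ-xbp-1s B cell replicates 3, 4 and 5 and MM replicates 4, 5 and 6 were below every nontransgenic array, while the other arrays of both groups were within the nontransgenic range. Stt3b had log2 fold changes of -0.38 (standard error 0.21, limma adjusted p = 0.353) between the B cell groups and of -0.78 (95% interval -1.57 to 0.02, limma adjusted p = 0.151) between MM and nontransgenic B cells, the largest of the 38 genes in size. The latter was -0.28 within the first array set and -1.35 within the second, -0.50 without MM replicate 6, and the second probe set of Stt3b gave -0.87 (limma adjusted p = 0.188). Between the B cell groups Stt3b was -0.18 and -0.52 within the sets. The arrays with low Stt3b are those with the raised 3' over 5' intensity of Gapdh and, of the transgenic B cells, replicate 5, and the part of RNA integrity in this was not tested.

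The ratio of the catalytic subunits was compared on each array, as were those of Sec11c over Sec11a and Tram2 over Tram1. The log2 ratio of Stt3b over Stt3a was 1.61 ± 0.32 in nontransgenic and 0.78 ± 0.65 in transgenic B cells (SD, n = 5 each) and 0.88 ± 0.66 in MM (SD, n = 6). It was lower by 0.83 in Eμ-xbp-1s B cells (exact two-sided permutation test, p = 0.0556, adjusted over 9 tests p = 0.25) and by 0.73 in MM (p = 0.0476, adjusted p = 0.25), so that neither difference passed. Taken as same-numbered pairs, the B cell samples gave a lower ratio in 5 of 5 pairs, with differences of -0.22, -0.74, -1.39, -0.91 and -0.88 in replicates 1 to 5 (exact two-sided sign-flip permutation test, p = 0.0625, the smallest that 5 pairs can give, adjusted over the 3 ratios p = 0.188). This pairing rests on the numbers in the labels, and only replicate 2 correlated best with its own number. Within the array sets the difference was -0.48 and -1.06 between the B cell groups and -0.47 and -1.10 between MM and nontransgenic B cells. The other ratios differed by 0.06 to 0.32 in size with an adjusted p of 0.584 or more by the exact test.

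Rpn1, the ribophorin that binds substrates, stood at 845, 918, 629, 726 and 598 on the nontransgenic arrays (replicates 1 to 5) and at 1164, 1069, 1348, 1022 and 604 on the Eμ-xbp-1s B cell arrays. Its MM values ran from 389 to 1363 with a median of 783. Eμ-xbp-1s replicates 1 to 4 were above every nontransgenic array and replicate 5 within their range, and MM replicates 1, 2 and 3 were above and 5 and 6 below that range. Rpn1 had log2 fold changes of 0.46 (standard error 0.21, limma adjusted p = 0.255) between the B cell groups (0.34 and 0.54 within the array sets) and of -0.43 (standard error 0.35, limma adjusted p = 0.472) between MM and Eμ-xbp-1s B cells, where it was 0.09 within the first array set and -0.99 within the second. Rpn2, its partner, stood at 396, 570.1, 455, 487 and 423 on the nontransgenic arrays (replicates 1 to 5) and at 789, 721, 275, 327 and 553 on the Eμ-xbp-1s B cell arrays. Rpn2 had the widest range of the 38 genes over the MM arrays, 2.38 on the log2 scale, and ran from 144 to 749.6 with a median of 608. MM replicate 6, at 144, was the lowest of all 16 arrays, MM replicates 1, 2, 3 and 4 were above every nontransgenic array, and Eμ-xbp-1s B cell replicates 3 and 4 were below them all. Its log2 fold change was 0.08 (standard error 0.28, limma adjusted p = 0.906) between the B cell groups and 0.03 (standard error 0.37, limma adjusted p = 0.964) between MM and nontransgenic B cells. Within the array sets Rpn2 had opposite signs, with 0.67 and -0.30 between the B cell groups and 0.55 and -0.51 between MM and nontransgenic B cells.

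Dad1, a small subunit that keeps the complex together, stood at 1212, 1251, 827, 1072 and 863 on the nontransgenic arrays (replicates 1 to 5) and at 1649.6, 1386, 735, 899.9 and 753 on the Eμ-xbp-1s B cell arrays. It ran from 399.8 to 1028 with a median of 817 in MM, with replicates 4, 5 and 6 below every nontransgenic array and the other MM arrays within their range. Against nontransgenic B cells Dad1 had a log2 fold change of -0.50 (standard error 0.25, limma adjusted p = 0.181), which was -0.36 and -0.72 within the array sets. Krtcap2, a subunit of the complex that holds STT3A, stood at 272, 324, 1346, 1388 and 1365 on the nontransgenic arrays (replicates 1 to 5) and at 403, 397, 2168, 1502 and 1451 on the Eμ-xbp-1s B cell arrays. In MM it ran from 315 to 1369.6 with a median of 643. Every array of the first set, at 272 to 466.2, was below every array of the second, at 819 to 2168, in all 3 groups. Between MM and the transgenic B cells Krtcap2 had the largest log2 fold change in size of the 38 genes, -0.60 (95% interval -1.71 to 0.51, limma adjusted p = 0.485), but it was -0.01 within the first array set and -0.78 within the second. That between the B cell groups, 0.35 (standard error 0.62, limma adjusted p = 0.815), was -1.04 with array weights and -0.27 without Eμ-xbp-1s replicates 3 and 4. Its second probe set, with group means of 701 to 984, gave 0.31 in this comparison (limma adjusted p = 0.272). Ddost and Ostc, the remaining subunits, had log2 fold changes of 0.00 and 0.01 between the B cell groups and -0.27 and -0.11 between MM and nontransgenic B cells. Within the array sets those between the B cell groups were 0.36 and -0.24 for Ddost and 0.36 and -0.23 for Ostc, and those between MM and nontransgenic B cells were -0.27 and -0.32 for Ddost and 0.36 and -0.51 for Ostc.

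**Figure D5:**
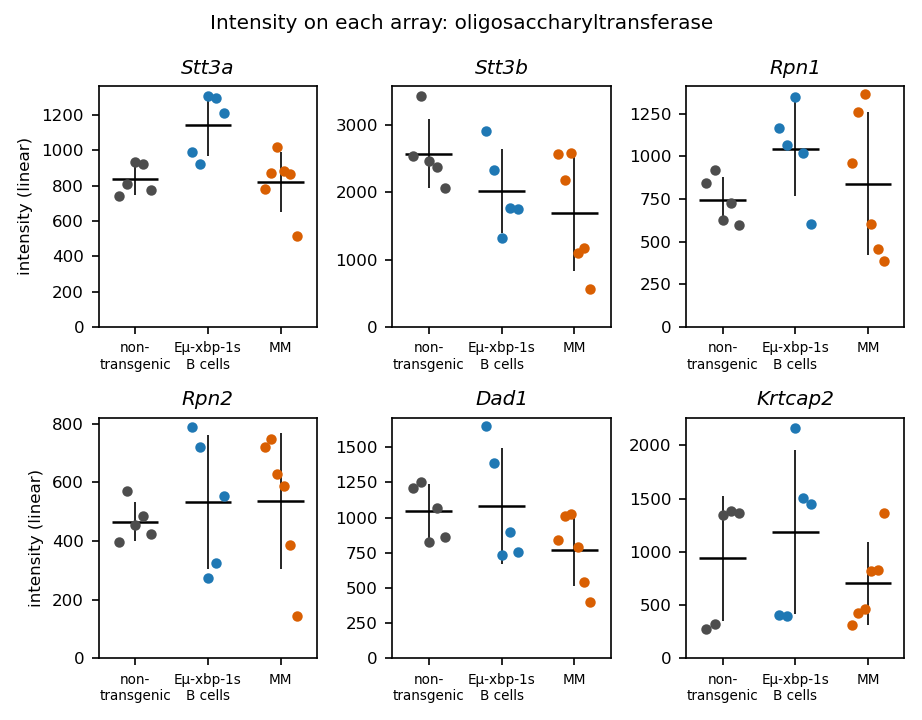
Linear intensity (y axis, from 0) of 6 oligosaccharyltransferase genes on each array of nontransgenic B cells, Eμ-xbp-1s B cells and MM, as points in replicate order with the mean (horizontal line) and SD (vertical line). Stt3b lies below every nontransgenic array in 3 of 5 Eμ-xbp-1s B cell arrays and 3 of 6 MM arrays, and Krtcap2 is split within each group between arrays at 272 to 466.2 and arrays at 819 to 2168.

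The enzymes that build the dolichol-linked glycan had a median log2 fold change of -0.03 between the B cell groups and of -0.15 between MM and nontransgenic B cells. Dpagt1, which adds the first sugar to dolichol phosphate, stood at 112, 116, 101, 104 and 109 on the nontransgenic arrays (replicates 1 to 5) and at 132, 112, 119, 108 and 123 on the Eμ-xbp-1s B cell arrays. It ran from 107 to 165 with a median of 148 in MM. Of the MM arrays, 5 were above every nontransgenic array and replicate 6 was within their range, and the log2 fold change against nontransgenic B cells was 0.40 (95% interval 0.09 to 0.72, limma adjusted p = 0.0633), at intensities near the filter's level of 100. Alg5, which makes the glucose donor of the last steps, stood at 323, 309, 229, 264 and 223 on the nontransgenic arrays (replicates 1 to 5) and at 349.9, 346, 107, 179.8 and 208 on the Eμ-xbp-1s B cell arrays. Alg5 ran from 117 to 351 with a median of 224 in MM, its first array set was above the second on every array, and its log2 fold change against nontransgenic B cells of -0.40 (standard error 0.31, limma adjusted p = 0.39) was -0.01 and -0.86 within the sets. Alg2, a mannosyltransferase, and Dpm1 and Dpm2 of the mannose donor synthase had log2 fold changes between -0.30 and 0.08 in the 3 comparisons.

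Of the enzymes that trim glucose, Mogs and Prkcsh lay above 0 and Ganab below 0 in Eμ-xbp-1s B cells. Mogs, glucosidase I, and Prkcsh, the β subunit of glucosidase II, had log2 fold changes of 0.33 (standard error 0.14, limma adjusted p = 0.218) and 0.32 (standard error 0.13, limma adjusted p = 0.193) between the B cell groups. Ganab, the catalytic subunit of glucosidase II, stood at 542, 728, 320.2, 449 and 352 on the nontransgenic arrays (replicates 1 to 5) and at 787, 649.5, 261, 313 and 317 on the Eμ-xbp-1s B cell arrays. It ran from 163 to 492 with a median of 356 in MM. MM replicates 4, 5 and 6 were below every nontransgenic array and replicates 1, 2 and 3 within their range, and among the transgenic B cells replicates 3, 4 and 5 were below that range and replicate 1 above it. The log2 fold change of Ganab between MM and nontransgenic B cells was -0.55 (standard error 0.32, limma adjusted p = 0.248), and -0.46 and -0.78 within the array sets.

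The median change of the members was not the same within the 2 array sets. Within the first set the median log2 fold change between the B cell groups was 0.32 beside 0.04 over all probe sets, and 3 genes (Srp9, Srprb and Sec61a1) were called higher, where 5.31% of all probe sets were. Within the second it was 0.06 beside -0.08, with 0 called (2.44%). Between MM and nontransgenic B cells the median was 0.24 beside 0.02 in the first set, with Ssr1 and Ssr3 called higher (7.78% of all probe sets), and -0.26 beside -0.11 in the second, with 0 called (1.64%). With the set as a block over all arrays, 0 members were called in any comparison, beside 4.52%, 3.1% and 6.73% of all probe sets called higher, and the members' medians were 0.16, -0.25 and -0.04. A difference between the sets was not tested, and the second set holds the arrays with the raised 3' over 5' intensity.

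Other genes of the same pathways were taken from lists on translocation and signal peptides (19 genes measured) and on N-glycosylation (33 measured). None was called in any comparison, where 0.481% to 5.65% of all probe sets were called in a given direction. At an unadjusted p under 0.05 in limma, the 19 gave 2 higher and 2 lower between the B cell groups, 2 and 1 between MM and transgenic B cells and 1 and 1 in MM against nontransgenic B cells. The 33 gave 2 and 0 of 29 tested, 1 and 3 of 30 tested and 3 and 4 of 30 tested. The shares of all probe sets higher and lower were 10.6% and 9.47%, 11.4% and 15.2%, and 15.1% and 20.2% in these comparisons. The median log2 fold changes of both lists lay between -0.06 and 0.06 in the 3 comparisons, beside the members' 0.16, -0.20 and 0.03.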

How the data were processed

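RNA of nontransgenic B cells, Eμ-xbp-1s B cells and Eμ-xbp-1s MM was hybridised by the authors to Affymetrix mouse genome arrays, 1 sample an array. The deposited values are linear intensities, 1 per probe set and array, which the authors computed in dChip from perfect match minus mismatch signals after normalizing every array to the one of overall median intensity. The arrays had median intensities of 69.0 to 82.9, and their number limits the precision. Of 45101 probe sets, 64 controls were left out of the tests, 34958 were annotated to 1 gene, 932 to several and 9211 were not listed. Gene symbols were updated through RefSeq where possible.

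Intensities under 50 were set to 50 and log2 values were tested in limma 3.58.1 (R 4.3.3), a fit for each pair of groups, with Benjamini-Hochberg adjustment over all probe sets above 100 on more than 20% of arrays. The test was checked on simulated data. Paralogue ratios were compared by exact permutation in scipy 1.17.1, and figures and tables were made in Python 3.11.15. The members, the lists and the array sets were chosen with earlier results of these data known. Genes given by a value for every B cell array and by the range and median in MM are the 8 with the largest change in each comparison, the 5 with the widest range in MM and the 3 paralogue pairs, 20 genes in all. Others are named with group values, as chosen after their values were seen. For the B cell groups, samples of the same number in the labels had correlated deviations (0.17 to 0.52 in all 5 pairs) and were taken as pairs. Only Eμ-xbp-1s replicate 2 correlated best with the nontransgenic array of its own number, so that the correlations do not establish a pairing. Same-numbered B cell samples also lie in the same array set, and the part of the sets in these correlations was not tested. No source says what the number marks. With the replicate number as a block 0 members were called there too, with a median of 0.16. Alternatives changed the floor, filter, normalization, variance model, weights, probe set rule, block and arrays included.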

Additional observations from a re-analysis of the deposited data

Results flagged for a closer look

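In a test for single far values over 114 groups of values (38 genes in 3 groups), which picks about 1 in 20 groups by chance, 1 value stood out. Mogs, glucosidase I, was 421.7 in Eμ-xbp-1s B cell replicate 2, while the other arrays of this group were between 519.3 and 542.2, so that the gap was 0.81 of the group's range.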

How the results depend on the processing

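Of the alternatives to each result, 1003 kept direction and call, 8 counts or medians moved and 21 values turned sign. In 12 others a single gene passed the threshold in addition. A gene counts here once for each setting in which it passed, as Ssr3 did in 4 and Ssr1 in 3. Members called higher in MM against nontransgenic B cells, 0 as reported, were 1 after quantile normalization (Ssr3, beside 4.05% of all probe sets called higher in that setting), 2 at an adjusted p under 0.05 (Ssr3 and Sec61b, beside 8.75%), 6 with array weights (Ssr1, Ssr2, Ssr3, Spcs1, Dpagt1 and Prkcsh, beside 14%), 2 within the first array set (beside 7.78%) and 0 to 1 with 1 array left out (1, Ssr1, without MM replicate 6, beside 6.23%). Their median was -0.26 within the second array set. Between the B cell groups, 3 were called (beside 5.31%) and the median was 0.32 within the first array set. No member was called lower, or in MM against Eμ-xbp-1s B cells, under any alternative run. With 1 array left out, the medians ran from 0.09 to 0.20 between the B cell groups, from -0.26 to -0.11 between MM and Eμ-xbp-1s B cells and from -0.10 to 0.07 between MM and nontransgenic B cells. With the replicate block the latter medians were -0.11 and 0.06 with 0 members called, the samples of MM being paired by number only.

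Signs turned between the B cell groups for Krtcap2, to -1.04 with array weights, to -0.27 without Eμ-xbp-1s replicates 3 and 4 and over -0.011 to 0.66 with 1 array left out, and for Sec61a1, to -0.063 with the mean of its probe sets. In MM against Eμ-xbp-1s B cells they turned for Rpn1, to 0.0080 with array weights and 0.086 within the first array set, for Tram2, to 0.11 within that set, and for Krtcap2, to 0.019 without Eμ-xbp-1s replicates 3 and 4. In MM against nontransgenic B cells they turned with array weights for Ganab, to 0.020, and Alg5, to 0.20. The log2 ratio of Sec11c over Sec11a turned to -0.13 in the same comparison with the mean of probe sets and to -0.18 within the first array set. Between the B cell groups it turned to 0.13 within the second set, and with 1 array left out it ran from -0.10 to 0.034. Likewise Stt3b over Stt3a ran from -0.089 to 0.30 between MM and Eμ-xbp-1s B cells and turned to -0.033 within the second set, and Tram2 over Tram1 from -0.28 to 0.13 between MM and nontransgenic B cells. Within the first set Tram2 over Tram1 turned in every comparison, to -0.12, 0.37 and 0.25. The paired ratios, the array sets, and leaving out replicates 3 and 4 together, were chosen after seeing the data, each set holds 2 or 3 arrays a group, and the cause of these turns was not tested.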
